A study of Homo sapiens with 6 samples.

Results

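The genes of the ISG15 conjugation pathway are the ubiquitin-like modifier ISG15, its activating enzyme UBA7 (E1), its conjugating enzyme UBE2L6 (E2), the ligases HERC5 and HERC6 (E3) and the deconjugating protease USP18. The related modifier gene UBD, which encodes FAT10, was taken with them. The 7 genes were listed by their roles, with earlier results of these data known, and every probe annotated to 1 of them was used. Of the 7 genes, 6 had such a probe, 8 probes in all, out of 18848 genes with an annotated probe on the array. USP18 was not analysed here. Of the 8 probes, 7 were well above background (detection p under 0.01) on at least 3 arrays, so all 6 genes with a probe were among the 9078 genes tested.

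RNA came from SW1353, an established human chondrosarcoma line that serves as a model of chondrocytes. All cells were held without serum for about 20 h. The IL-1 group (3 samples) then received interleukin-1 alpha at 0.5 ng/ml for 6 h, and the control group (3 samples) received none. The labels name no transgene, and both groups are the same line. Titles come in 2 kinds: 4 arrays are titled Allstars (replicates 1 and 2 of each group) and 2 are titled Sample (replicate 3 of each group), and the labels give no meaning for the kinds. Whether separate cultures were used is not stated, so the p-values rest on sample-to-sample spread that may be technical. RNA was measured in bulk, so fewer cells carrying a transcript and less of it per cell cannot be told apart.

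ISG15 is attached to lysines of target proteins through the same kind of enzyme relay as ubiquitin: UBA7 activates it, UBE2L6 carries it and HERC5 transfers it in human cells, while HERC6 does that work in the mouse. USP18 removes it. The whole relay is known for induction by type I interferons, through the factor complex ISGF3, of which IRF9 is a part and which binds interferon-stimulated response elements. FAT10 also has tandem ubiquitin-like domains, but it marks proteins for the proteasome, is activated by UBA6 and carried by UBE2Z, and is known for induction by tumour necrosis factor and interferon gamma. IL-1 is known to act first through NF-kB, which binds kappaB motifs.

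The letters just before the gene starts show where these motifs lie, and the 3 stretches with a match are printed. RefSeq (GRCh38.p14) gave 6 annotated starts for 5 of the genes, ISG15, UBE2L6, HERC5, HERC6 and UBD. The 250 bases before each start are read 5′ to 3′ on the gene's strand, and capitals mark a motif match. The searched motifs were the interferon response element core GAAANNGAAA, the kappaB motif by name and the gamma-activated site TTCNNNGAA, all on both strands. The stretches are ISG15 at chr1:1013247-1013496 on the plus strand, HERC5 at chr4:88456869-88457118 on the plus strand and UBD at chr6:29559733-29559982 on the minus strand.
ISG15: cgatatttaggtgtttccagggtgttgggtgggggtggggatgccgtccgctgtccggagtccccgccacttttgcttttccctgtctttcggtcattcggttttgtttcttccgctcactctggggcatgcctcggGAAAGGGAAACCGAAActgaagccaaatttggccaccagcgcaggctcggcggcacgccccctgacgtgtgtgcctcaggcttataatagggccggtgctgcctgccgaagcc
HERC5: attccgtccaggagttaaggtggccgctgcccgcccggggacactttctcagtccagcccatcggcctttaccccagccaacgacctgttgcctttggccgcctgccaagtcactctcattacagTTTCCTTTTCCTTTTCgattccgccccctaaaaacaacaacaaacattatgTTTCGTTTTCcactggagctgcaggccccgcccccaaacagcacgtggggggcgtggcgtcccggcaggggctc
UBD: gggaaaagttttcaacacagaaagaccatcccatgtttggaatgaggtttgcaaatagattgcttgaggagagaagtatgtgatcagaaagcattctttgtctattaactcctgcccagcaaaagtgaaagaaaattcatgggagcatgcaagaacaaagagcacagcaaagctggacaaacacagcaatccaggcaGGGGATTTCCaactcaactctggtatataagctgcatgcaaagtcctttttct

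In ISG15 the element core matched at 2 places that overlap, between 113 and 98 bases before the start. In HERC5 it matched at 3 places: 2 overlap between 125 and 110 bases before the start, and the third lies between 74 and 65. The kappaB motif matched in UBD alone among these starts, between 53 and 44 bases before it. HERC6 and both starts of UBE2L6 held no match to any of the 3 motifs in this window. Of 35116 RefSeq starts, 3.02% held the element core, 9.96% the kappaB motif and 6.57% the gamma-activated site. These are matches of letters, and no binding was measured here.

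**Figure D1:**
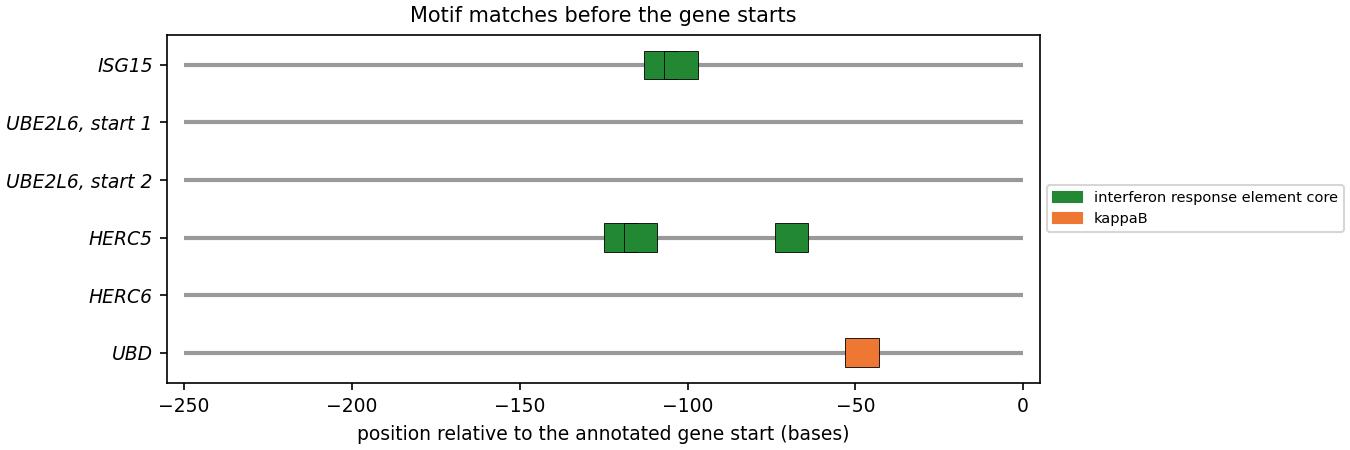
Motif matches in the 250 bases before the RefSeq starts of 5 genes. The horizontal axis is the distance from the start in bases, grey lines are the searched windows, green boxes are interferon response element cores and the orange box is the kappaB motif. The boxes of ISG15 and the left pair of HERC5 overlap, at 113 to 98 and 125 to 110 bases before the start.

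The comparison asks which of these transcripts differ after 6 h of IL-1. All 6 genes with a probe rose, in a list chosen with earlier results of these data known. ISG15 and HERC5 had the largest differences of the 5 genes measured in both groups, followed by HERC6, UBE2L6 and UBA7, and UBD has only a lower bound. Of all 9078 genes tested 6.08% rose and 2.94% fell, 9.02% in all (limma with Benjamini-Hochberg adjustment over all genes, adjusted p under 0.05). The median difference of the 6 genes was 3.06 on the log2 scale, or 2.32 with UBD at its lower bound, against -0.11 over all genes tested. On each of the 6 genes the 3 IL-1 arrays lay above the 3 control arrays, as was so for 11.0% of all genes tested, while 17.1% had every IL-1 array below. With title series as a block all 6 again rose, as did 13.0% of all genes tested, while 22.2% fell (35.2% in all). UBD is in each of these counts although it entered the test only through its IL-1 arrays. Its call and its separation are thus no support, and the counts rest on the other 5 genes. Signals below are background-corrected, quantile-normalized log2 values, which can be compared between arrays for 1 probe and not between probes.

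ISG15, the modifier itself, had log2 signals of 8.51, 7.66 and 7.30 on control replicates 1, 2 and 3 and of 12.83, 12.84 and 11.62 on IL-1 replicates 1, 2 and 3. The groups did not overlap, and in each group the array with a Sample title was the lowest. The mean went from 7.82 ± 0.62 to 12.43 ± 0.70 (SD, n = 3 each). The rise was 4.61 ± 0.41 (SE), or 24.4-fold (limma adjusted p = 3.23e-04). Only 38 of the tested genes had a larger rise. Before normalization the controls read 307, 146 and 371 and the IL-1 samples 4553, 3416 and 6102 for ISG15, with a detection p of 0 throughout. ISG15 transcript was thus present before IL-1.

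UBA7, the E1 that activates ISG15, changed least. Controls 1, 2 and 3 read 8.11, 7.82 and 7.55 for UBA7, and their IL-1 counterparts 9.08, 9.04 and 8.67 (log2 signals). The lowest IL-1 array and the highest control array were 1 Sample and 1 Allstars array, and they still did not overlap. UBA7 rose by 1.10 ± 0.20, or 2.15-fold (limma adjusted p = 0.0123). This call was lost without control replicate 2, IL-1 replicate 1 or IL-1 replicate 2 (limma adjusted p = 0.0559, 0.0666 and 0.0650), and with equal array medians in place of quantile normalization (1.00). With title series as a block its limma adjusted p was 2.16e-06.

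UBE2L6, the E2, was read by 3 probes. The brightest, which stood for the gene, read 10.60, 10.73 and 10.45 without IL-1 and 12.17, 12.40 and 12.10 with it (log2 signals). These arrays lay close together within each group, with an SD of 0.14 in the controls and 0.16 in the IL-1 group. UBE2L6 rose by 1.63 ± 0.13, or 3.10-fold (limma adjusted p = 2.26e-04, and 0.661 with equal array medians). Another kept probe of UBE2L6 went from 8.36 ± 0.10 to 10.12 ± 0.11 (SD, n = 3 each) and rose by 1.76 ± 0.14 in a fit over all kept probes (limma adjusted p = 1.94e-04), of which 5.71% rose. The third probe, annotated to another transcript record of the gene, was well above background on 0 of 6 arrays, with log2 signals between 4.49 and 4.77. The UBE2L6 rise was therefore read from the probes of 1 transcript record.

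HERC5, the main human ISG15 ligase, which works at the ribosome on newly made proteins, read 9.18, 9.30 and 8.33 without IL-1 and 13.19, 13.23 and 12.39 with it (log2 signals). The groups were far apart, and after normalization the arrays with Sample titles were again the lowest of each group. Before normalization they were the highest, at 685 against 462 and 353 without IL-1 and 10157 against 5871 and 4514 with it. HERC5 rose by 4.00 ± 0.31, or 16-fold (limma adjusted p = 1.71e-04). Its neighbour HERC6, with no protein-coding gene between them on chromosome 4, read 8.35, 8.52 and 8.37 without IL-1 and 11.00, 10.69 and 10.39 with it (log2 signals). The HERC6 controls were tight, with an SD of 0.09. HERC6 rose by 2.28 ± 0.18, or 4.84-fold (limma adjusted p = 1.66e-04, and 0.131 with equal array medians). The HERC5 response was larger than that of HERC6 by 1.73 on the log2 scale, and the per-array HERC5 to HERC6 ratio was higher on every IL-1 array than on any control array (exact permutation p = 0.1, two-sided, the smallest that 3 against 3 allows).

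UBD was detected well above background in 0 of 3 controls and in 3 of 3 IL-1 samples. Its control log2 signals were 4.45, 4.44 and 4.55, and its IL-1 signals were 9.03, 8.96 and 6.99. The Allstars IL-1 arrays lay close together, and the Sample IL-1 array was 2.00 below their mean. Because the controls are not measured above background, the rise is given as a lower bound. It sets the IL-1 mean against control values raised to the lowest signal that was well above background on each array. UBD rose at least 5.17-fold, with means of 4.48 ± 0.06 and 8.33 ± 1.16 (SD, n = 3 each). The fitted UBD difference was 3.85 (limma adjusted p = 0.00303), and 2.24 on the authors' deposited log2 values. Both rest on controls below background, and the p-value does not test the bound. UBD passed the detection filter only through the IL-1 arrays. With it at its bound, the median of the 6 genes was 2.32. Before normalization UBD read 52.8, 48.7 and 80.6 without IL-1 and 352, 258 and 296 with it, while the median signal over all probes lay between 60.3 and 67.2 on Allstars arrays and between 91.5 and 95.3 on Sample arrays.

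**Figure D2:**
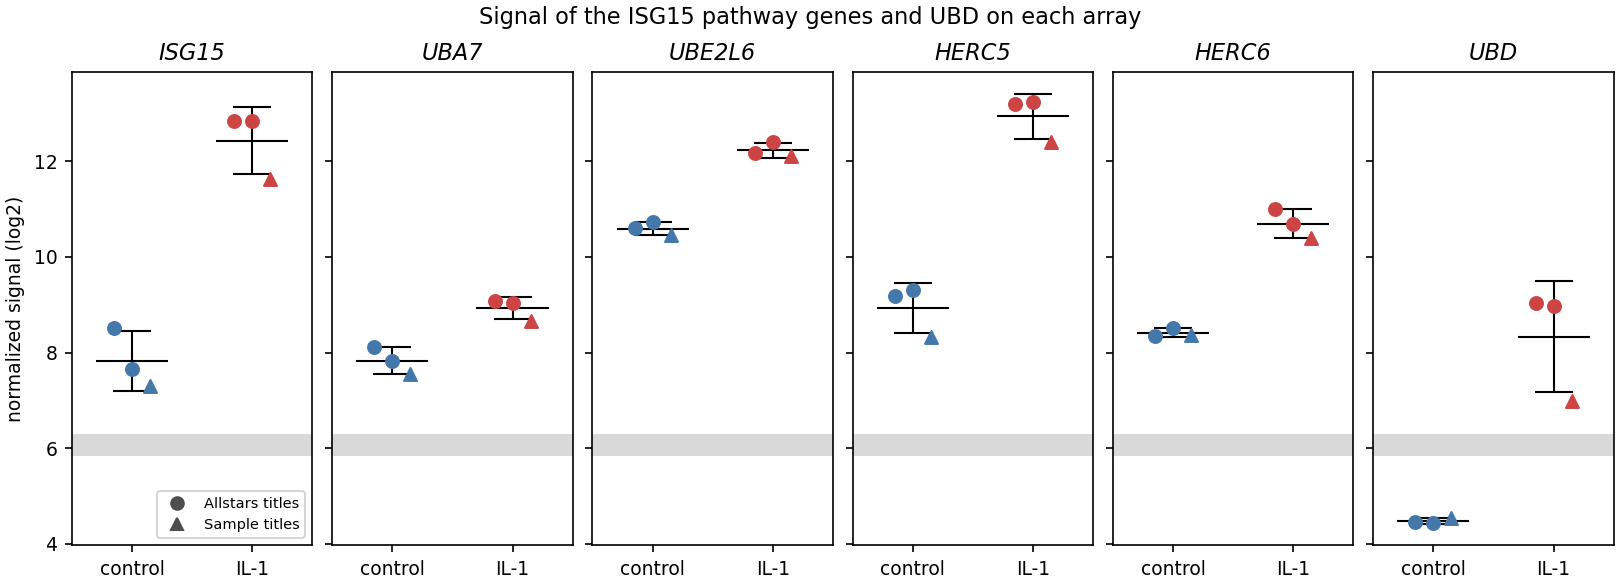
Normalized log2 signal (vertical axis) of 6 genes on each array, control and IL-1. Circles are arrays with Allstars titles, triangles arrays with Sample titles, horizontal bars with whiskers the mean ± SD (n = 3), and the grey band the lowest signal well above background over the 6 arrays. IL-1 arrays lie above control arrays for every gene, the controls of UBD lie under the grey band at 4.44 to 4.55, and its Sample IL-1 array stands at 6.99.

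The 95% intervals of the responses were 3.66 to 5.55 for ISG15, 3.27 to 4.73 for HERC5, 1.86 to 2.69 for HERC6, 1.32 to 1.95 for UBE2L6 and 0.64 to 1.56 for UBA7, all on the log2 scale. Each interval overlapped that of the next gene in this order, except those of HERC5 and HERC6. Among the 10 pairs of these 5 genes, the per-array difference between the genes of a pair separated IL-1 from control arrays without overlap in 9. Each of these 9 had the smallest p the design allows (exact permutation p = 0.1, two-sided, and 0.111 after Benjamini-Hochberg adjustment over the 10), so no pair could pass a threshold of 0.05. The pair that overlapped was ISG15 with HERC5, whose responses differed by 0.61 (exact permutation p = 0.2, adjusted 0.2). Pairs of other tested genes were not counted, so the 9 of 10 has no background share beside it. UBD was not compared with the others, because its controls were below background.

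Within each title series the direction was the same for every gene. ISG15 rose by 4.75 on the Allstars arrays and by 4.32 on the Sample arrays. HERC5 rose by 3.97 and 4.06, UBE2L6 by 1.62 and 1.65, and UBA7 by 1.10 and 1.12, in the same order. These 3 enzymes thus differed little between the series. HERC6 rose by 2.41 and 2.02. UBD was at least 7.94-fold and at least 2.19-fold higher with its controls at their bound. The Sample series has 1 array per group, so its difference has no replicate check.

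The test of the difference between series found 0 genes at an adjusted p under 0.05 (limma interaction, 0% of 9078), and 552 at an unadjusted p under 0.05. The 5 genes measured in both groups had limma adjusted p between 0.858 and 0.996. For UBD this difference rests on controls below background and is not given. The normalized levels themselves also moved with the series. Before normalization the Sample control array read highest of the controls for each of the 5 genes measured in both groups. The shifts below therefore hold for normalized signals only. The Sample control array was below the mean of the Allstars control arrays by -0.91 for HERC5, -0.79 for ISG15 and -0.42 for UBA7. It was lower by -0.22 for UBE2L6 and -0.06 for HERC6, while the median absolute shift over all genes was 0.32 in the controls and 0.34 in the IL-1 group. The cause of these shifts was not tested.

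**Figure D3:**
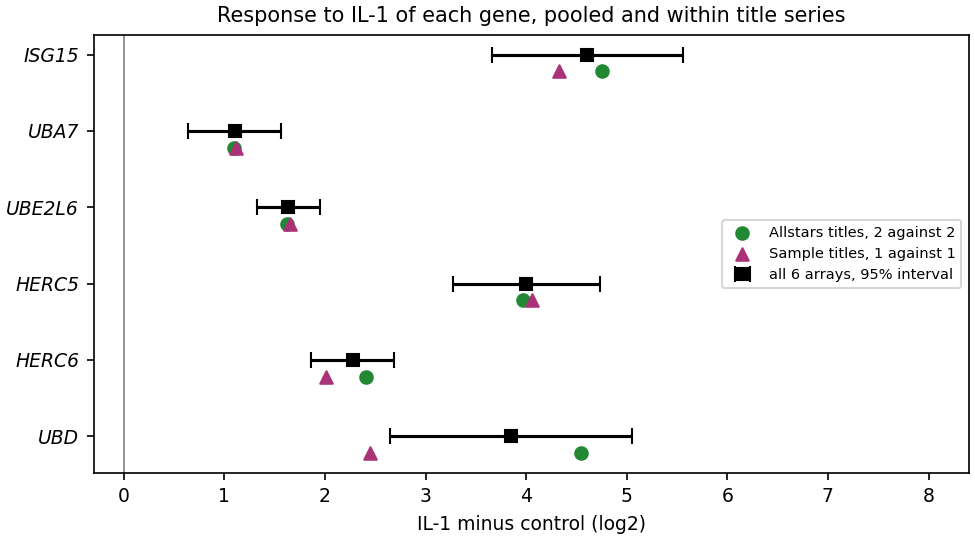
Response to IL-1 (horizontal axis, IL-1 minus control on the log2 scale) of 6 genes. Squares with bars are the limma difference with its 95% interval over all 6 arrays, green circles the Allstars arrays (2 against 2) and purple triangles the Sample arrays (1 against 1). Circle and triangle lie close together for UBA7, UBE2L6 and HERC5. For UBD the plotted values rest on controls below background, so the distance between its circle and triangle is not read.

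**Figure D4:**
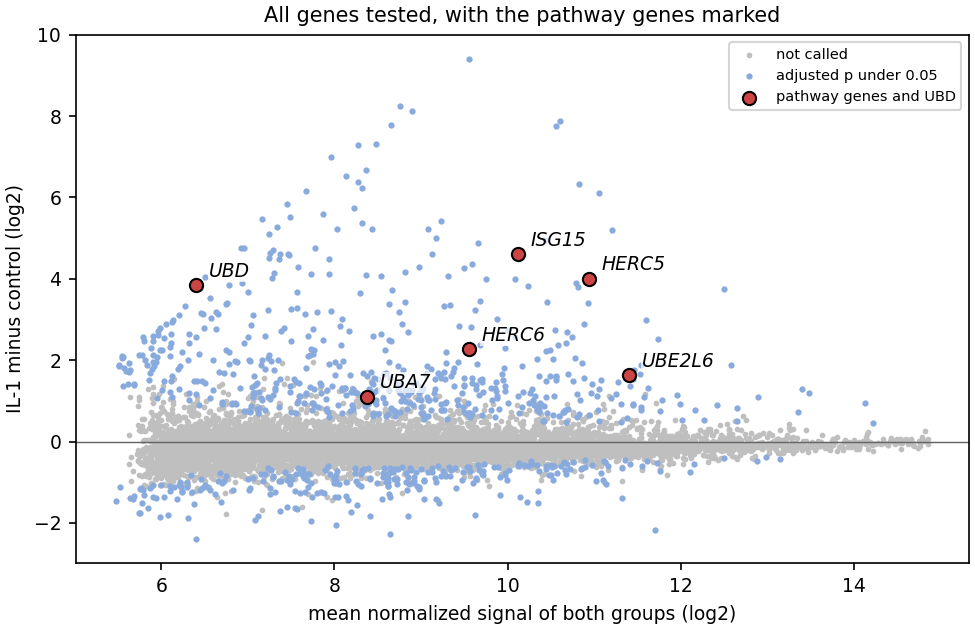
Response to IL-1 (vertical axis, IL-1 minus control, log2) against the mean normalized signal of both groups (horizontal axis, log2) for 9078 genes. Each point is a gene, blue where the adjusted p was under 0.05 and grey otherwise, and the red points are the 6 genes of the pathway with UBD. ISG15 and HERC5 stand at 4.61 and 4.00, and UBA7 at 1.10 lies nearest to the grey cloud.

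A list of 9 other genes held ISG15 ligases, ISG15-binding proteins, the other HERC genes and NCOA7. All were tested, 2 rose and 0 fell, with a median difference of 0.01, beside 6.08% and 2.94% of all genes tested. The count and median are thus not for ISG15 transfer or binding alone. TRIM25, a ligase with ISG15 activity that also ubiquitinates the RNA sensor RIG-I, rose by 2.37 ± 0.15, or 5.16-fold (limma adjusted p = 6.16e-05, and 0.0863 with equal array medians). NCOA7, which encodes a nuclear receptor coactivator, rose by 2.82 ± 0.22 (limma adjusted p = 1.85e-04). ARIH1, another ligase reported to use ISG15, differed by -0.12 ± 0.21 (limma adjusted p = 0.817). The other HERC genes, HERC1, HERC2, HERC3 and HERC4, and the ISG15-binding proteins HDAC6 and SQSTM1 were named after their values were seen. They differed by between -0.13 and 0.23, and none passed.

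Of 4 tested genes that serve or bind FAT10, 3 rose and 0 fell, with a median of 0.79, beside 6.08% and 2.94% of all genes tested. The E1 UBA6 read 8.80, 8.50 and 8.67 without IL-1 and 9.52, 9.20 and 9.32 with it (log2 signals). It rose by 0.69 ± 0.15, or 1.61-fold (limma adjusted p = 0.0298), a call that held in 1 of 6 leave-one-out fits and reached an adjusted p of 0.143 without IL-1 replicate 1. The E2 UBE2Z rose by 0.90 ± 0.17, or 1.86-fold (limma adjusted p = 0.0140), which held in 3 of those 6 fits (0.0770 without IL-1 replicate 1). Other kept probes of UBE2Z differed by 0.87 and 0.42 and did not pass (limma adjusted p = 0.171 and 0.538). NUB1, which binds FAT10 and speeds its breakdown, rose by 1.62 ± 0.35, or 3.08-fold (limma adjusted p = 0.0259), held in 2 of the 6 fits and reached 0.111 without IL-1 replicate 1. With equal array medians none of the 3 passed (0.853 for NUB1, 1.00 for the others), and with title series as a block all 3 did (limma adjusted p = 2.74e-04, 2.51e-06 and 2.96e-09). MAD2L1, a spindle checkpoint protein that FAT10 binds, was named after its value was seen and differed by -0.11.

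Other conjugation genes were counted by class, to be read beside the 6.08% of all genes that rose and the 2.94% that fell. Among 16 other ubiquitin-like modifiers 1 rose and 1 fell, with a median of -0.02. The riser was OASL, an antiviral protein whose end resembles ISG15 in having tandem ubiquitin-like domains. OASL rose at least 45.1-fold and was well above background in 0 of 3 controls, so it passed the filter through the IL-1 arrays. Its limma adjusted p of 2.63e-06 comes from a fit on controls below background, not from this bound. UBL3, a membrane-anchored ubiquitin-like protein, fell by 0.91 ± 0.19 (limma adjusted p = 0.0249), held in 2 of the 6 fits and reached 0.113 without IL-1 replicate 1.

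Of 6 other E1 enzymes UBA6 rose and 0 fell, and the median was -0.14. Of 26 other E2 enzymes 3 rose and 1 fell, with a median of -0.03: UBE2Z, UBE2E1 and UBE2E2 rose and UBE2E3 fell. UBE2E2, UBE2E1 and UBE2E3, which carry ubiquitin, differed by 0.73, 0.50 and -0.59 (limma adjusted p = 0.0295, 0.0420 and 0.0474), and these calls held in 1, 1 and 0 of the leave-one-out fits, with the highest adjusted p at 0.133, 0.173 and 0.184. Of 25 other USP-family deconjugases and CYLD, 2 rose and 0 fell, with a median of -0.10. CYLD, which trims ubiquitin chains in NF-kB signalling, rose by 1.97 ± 0.34 (limma adjusted p = 0.00998, and 0.0523 without IL-1 replicate 1), and 1 of its 3 controls was well above background. USP42 rose by 0.91 ± 0.14 (limma adjusted p = 0.00655). With equal array medians UBL3, UBE2E1, UBE2E2, UBE2E3, CYLD and USP42 did not pass (0.383 for CYLD, 1.00 for the others). With title series as a block 2 modifiers rose and 2 fell, 2 E1 enzymes rose and 2 fell, 5 E2 enzymes rose and 3 fell, and 4 deconjugases rose and 3 fell, beside the 13.0% and 22.2% of all genes.

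**Figure D5:**
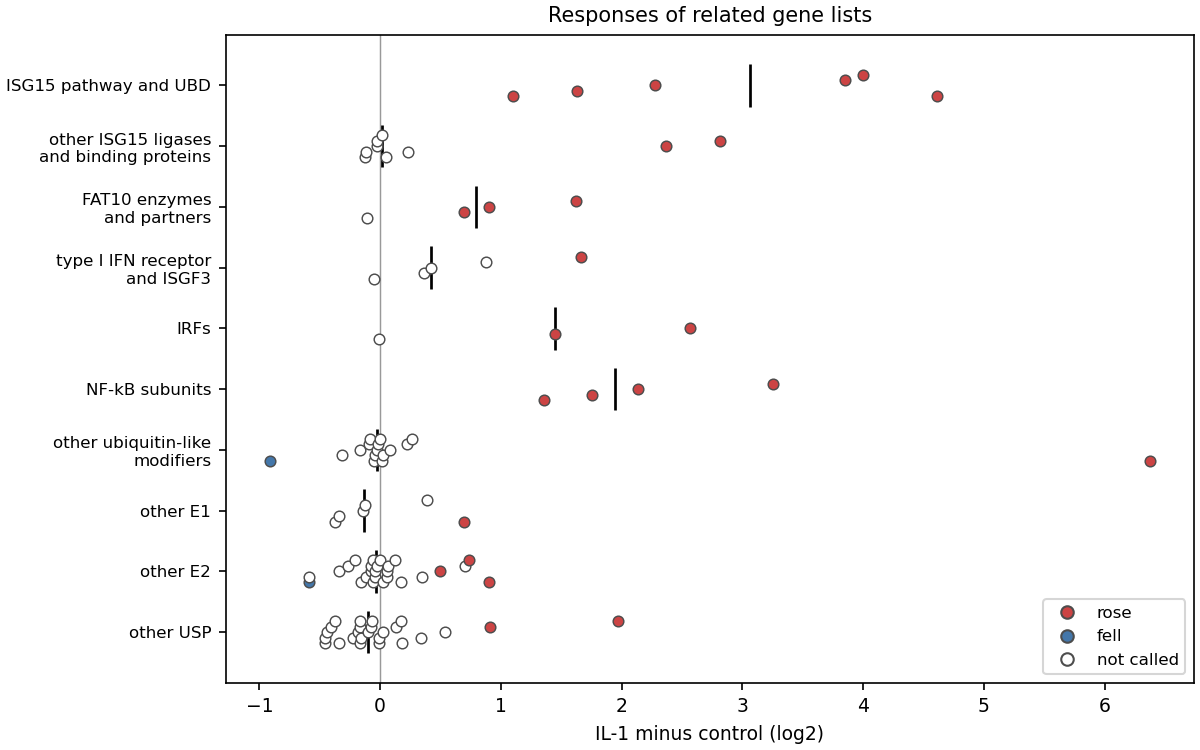
Response to IL-1 (horizontal axis, IL-1 minus control, log2) of each tested gene in the pathway (top row) and in 9 related lists. Red points rose, blue points fell, white points did not pass the limma threshold, and black bars are list medians. The 6 genes of the top row all lie above 1, UBD by a fit on controls below background. The medians of the other modifier, E1, E2 and USP rows lie between -0.14 and -0.02.

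Regulators known to act upstream of the pathway were read from the same arrays. Counts here are to be read beside the 6.08% of all genes that rose and the 2.94% that fell. All 4 tested NF-kB subunits rose, with a median of 1.94. RELB rose at least 8.95-fold and was well above background in 0 of 3 controls, so it passed the filter through the IL-1 arrays. The limma adjusted p of 2.71e-05 for RELB comes from a fit on those controls, not from the bound. NFKB2, detected in 2 of 3 controls, rose by 2.14 ± 0.20 and NFKB1 by 1.75 ± 0.11 (limma adjusted p = 4.63e-04 and 4.81e-05). RELA, the other one, rose by 1.36 ± 0.18 (limma adjusted p = 0.00272). With equal array medians NFKB2, NFKB1 and RELA did not pass (limma adjusted p = 0.233, 0.448 and 1.00). RELB passed there, but again from a fit on controls below background, so it is not read as the firmer rise. NFKBIA, the NF-kB inhibitor that NF-kB itself induces, rose by 2.98 ± 0.20 (limma adjusted p = 6.91e-05). Of 5 tested genes of the type I interferon receptor and ISGF3, 1 rose and 0 fell, with a median of 0.42. That gene, IRF9, the DNA-binding part of ISGF3, read 9.91, 10.03 and 9.66 without IL-1 and 11.53, 11.56 and 11.51 with it (log2 signals). It rose by 1.66 ± 0.13, or 3.17-fold (limma adjusted p = 2.06e-04, and 0.716 with equal array medians). STAT2 was not analysed here. Blocking on title series gave 4 rises among the 5, beside 13.0% of all genes that rose and 22.2% that fell in that fit.

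Of 3 tested interferon regulatory factors 2 rose, beside 6.08% of all genes tested. IRF1, which binds elements much like those of ISGF3, rose by 2.57 ± 0.24, or 5.92-fold (limma adjusted p = 4.00e-04), and IRF2, detected in 1 of 3 controls, by 1.45 ± 0.24 (limma adjusted p = 0.00821, and 1.00 with equal array medians). IRF7, which drives interferon alpha genes, was well above background on 0 arrays by all of its 3 probes. Of 21 interferon genes with a probe, 19 were well above background on 0 arrays. Only 1 was tested, IFNA8, named after its value was seen, and it differed by -0.05 ± 0.23 (limma adjusted p = 0.941). Another IFNA8 probe was well above background on 0 arrays, so its expression rests on 1 probe.

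IFNB1, the interferon beta gene, missed the detection filter, with a detection p under 0.01 on 1 of 6 arrays. It read 4.61, 4.55 and 4.97 without IL-1 and 5.74, 5.88 and 5.97 with it (log2 signals), and the groups did not overlap. The detection p was 0.0171, 0.0198 and 0.00922 on the IL-1 arrays and between 0.0738 and 0.559 on the control arrays. No fold or test is given for IFNB1, because its controls were not above background and a looser detection filter would admit it through the IL-1 arrays.

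The genes whose pattern over the 6 arrays was most like that of ISG15 were chosen by the smallest root-mean-square difference of gene-centred log2 signals. They were GBP1P1, MX1, TNFSF10, IL1RN and SAMD9L, at 0.29, 0.41, 0.42, 0.43 and 0.43. MX1 is an antiviral GTPase, TNFSF10 the death ligand TRAIL and IL1RN the IL-1 receptor antagonist. GBP1P1 is a pseudogene, so its probe may read the related GBP genes. MX1 rose by 4.07 ± 0.23, and its IL-1 signals of 10.86, 10.77 and 10.11 were, as for ISG15, lowest on the Sample array. For UBD they were ADAP1, GBP1P1, CCL5, BST2 and GBP6, at 0.34, 0.36, 0.39, 0.41 and 0.42. CCL5, a chemokine for T cells, had IL-1 log2 signals of 10.49, 10.37 and 8.16, and BST2, the virus-tethering protein tetherin, of 9.71, 9.68 and 8.22. These show the same order of arrays as UBD. Genes chosen by likeness over these arrays tend to share their order, for MX1 too, so the shared order is no separate result. The 6 arrays of a gene pair share libraries and title series, so likeness over them includes the series shift. GBP1P1, TNFSF10, IL1RN, CCL5, GBP6 and UBD itself were well above background in 0 of 3 controls and passed the filter through the IL-1 arrays, so their ranks rest partly on control values below background.

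Across the arrays 11954 to 13357 probes were well above background. Of the marker lists, mesenchymal genes such as VIM and COL1A1 were detected on all arrays. Of 10 cartilage markers, 8 were well above background on 0 arrays, COL2A1 and ACAN among them. COL11A1 was detected on 3 control and 2 IL-1 arrays, and SOX9 on all 6 arrays. Of 3 endothelial markers, VWF was detected on all 6 arrays and 2 on 0 arrays. SOX9, a cartilage transcription factor, fell by 0.94 ± 0.18 (limma adjusted p = 0.0186). Its difference was -1.18 on Allstars arrays and -0.45 on Sample arrays. Of 8 leukocyte markers with a probe, PTPRC, CD14, ITGAM, CD3E and CLEC4C were well above background on 0 arrays, and LYZ and CD163 each by 1 probe on 1 IL-1 array. CD68, a lysosomal protein of macrophages and many other cells, was detected on all 6 arrays and differed by 0.28 ± 0.24 (limma adjusted p = 0.579, and 0.0106 with title series as a block). CD68 made up most of the summed linear signal of that list, which lay between 6626 and 9921 on control arrays and between 7300 and 12628 on IL-1 arrays. Within each title series the sum was higher with IL-1, at 11557 and 12628 against 9098 and 9921 on Allstars arrays and 7300 against 6626 on Sample arrays. The part of these shifts in the rises of the pathway was not tested.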

How the data were processed

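Total RNA of 3 control and 3 IL-1 samples was hybridised to Illumina bead arrays. The table deposited by the authors gives, per the file headers, a signal intensity with its detection p-value at 48784 probes, not normalized. The series matrix deposited by the authors holds log2 values. The submitters' processing notes name lumi, whose settings are not given in the sources used here. Those values correlated with log2 signals at 0.983 to 1.00 per array, with medians of 5.86 to 5.87 on Allstars and 6.49 to 6.50 on Sample arrays, so their scale between title series is unknown.

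Background correction and quantile normalization used the neqc function (offset 16) in limma 3.58.1 under R 4.3.3. A probe was kept if 3 or more arrays gave it a detection p under 0.01 (13017 probes). GEO's platform annotation gave 1 gene for 28085 probes and several for 13, and 20686 probes were not listed. All 6 member gene IDs were found in RefSeq with the same symbols. The probe with the highest mean stood for its gene (9078 genes). Groups were compared with lmFit and eBayes (trend), by two-sided tests adjusted over every gene tested (Benjamini-Hochberg) and without a block, as the series states 3 samples against 3. The fits were tested on simulated arrays. Alternatives were title series and replicate number as blocks, Allstars arrays alone, other background, scaling, filter, probe and variance settings, the authors' log2 values and leaving out each array. No arrays held identical values, and their number limits the precision.

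Named were the 7 members, UBA6, UBE2Z, ARIH1, TRIM25, IFNB1, STAT2, IRF9, IRF1, IRF7 and NFKBIA, the 3 called genes of largest absolute difference in each pathway or context list, and the 5 genes most like ISG15 and UBD. The members and lists were chosen with earlier results of these data known. Same-numbered Allstars arrays deviated together with a correlation of 0.08 over 9078 genes, and only 2 such pairs have a number in the labels.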

Additional observations from a re-analysis of the deposited data

How the results depend on the processing

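No difference of the 6 genes reversed under any of the 19 alternatives, 2 of which (the authors' log2 values and equal medians, each with title series as a block) were chosen after seeing the data. ISG15 and HERC5, measured in both groups, passed in all 19. UBD passed in all 19 as well, but with controls below background, so its passing says little about the size of its rise. With equal array medians in place of the quantile step, UBA7, UBE2L6 and HERC6 kept 0.95, 1.60 and 2.15 but did not pass (limma adjusted p = 1.00, 0.661 and 0.131), so 3 members were called. That scaling moved the median of all genes from -0.11 to -0.22 and called 171 genes, 165 rises and 6 falls. With title series as a block on it the members passed, and 540 of 1079 calls were falls. The replicate block changed no member's call (3323 calls, 1214 rises and 2109 falls). Title series as a block gave 3196 calls (1181 rises and 2015 falls) and Allstars arrays alone 2582 (1048 and 1534). The authors' log2 values gave 170 falls, and 3237 calls with the block (1109 rises and 2128 falls). No filter gave 170 falls. Rises made up 67.4% of calls in the reported fit and 37.0% with the title block. The size for UBD was 2.24 with the authors' values and 2.50 without background correction. Leaving out 1 array gave 3.50 to 4.52 for UBD, 4.35 to 5.01 for ISG15, 0.96 to 1.24 for UBA7, 1.54 to 1.70 for UBE2L6, 3.70 to 4.27 for HERC5 and 2.12 to 2.43 for HERC6. It gave 5 or 6 members, and 426 to 965 genes (350 to 612 rises and 67 to 353 falls). UBA7 was the member lost. The causes were not tested.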
